A study of Bos taurus with 33 samples.

Results

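GDF9, BMP15 and BMP6 are secreted proteins of the transforming growth factor beta (TGF-beta) superfamily that the oocyte makes, and they were followed here in oocytes and in the cumulus cells (CC) that surrounded them. The 3 genes were chosen by name, as oocyte-secreted factors, from 17543 genes listed for oocytes or CC, of which 14980 were listed for both. All 3 were measured in oocytes. GDF9 and BMP6 were measured in CC, and BMP15 in CC was not analysed here.

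The samples came from postpartum Hereford-Angus beef cows whose follicle growth had been synchronized with gonadotropin-releasing hormone (GnRH) and prostaglandin. Cows of the small (at most 11.7 mm at the second GnRH injection) and large (at least 12.7 mm) follicle classifications received GnRH to induce the gonadotropin surge and had not shown estrus. Cows of the spontaneous classification (11.7 to 14.0 mm) showed estrus, had their own gonadotropin surge and received no second GnRH injection, so that surge type and estrus differ together from the other classifications and cannot be told apart. Follicles were aspirated about 23 h after GnRH or estrus by the protocol, and the labels also give about 20 h. Each library held RNA from a pool of 4 oocytes or from the CC of 4 oocytes. There were 6 small, 6 large and 4 spontaneous oocyte pools and 6 small, 6 large and 5 spontaneous CC pools. A pool mixes cells of several cows, so p-values measure the spread between pools.

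GDF9 and BMP15 signal from the oocyte to its CC, where they support proliferation, glycolysis, cholesterol synthesis and the hyaluronan matrix that forms when the cumulus expands. Both bind the type II receptor BMPR2. GDF9 then acts through the type I receptor TGFBR1 and SMAD2 and SMAD3, whereas BMP15 and BMP6 act through the type I receptors BMPR1A and BMPR1B or ACVR1 and the SMAD1 and SMAD5 branch. All are made as precursors that proprotein convertases such as FURIN cut.

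Values are CPM, the share of a library's reads on genes that fell on a gene, scaled to a common total. CPM is not divided by transcript length, so the levels of GDF9, BMP15 and BMP6 are not compared with each other. Reads on genes numbered 7664375 to 17934916 per oocyte pool and 1911600 to 5772431 per CC pool. At these depths, the limit that a count of 0 allows (3 reads) was 0.167 to 0.391 CPM for oocytes and 0.520 to 1.57 CPM for CC, which covers counting error only. All 10 oocyte markers had reads in oocyte pools, with a summed level of 13759 to 18820 CPM, and the 4 of those 10 listed for CC summed to 0.509 to 13.7 CPM there. Markers of cumulus and granulosa cells, 9 of 10 listed, summed to 11283 to 31274 CPM in CC pools and to 447 to 3774 CPM in oocyte pools. The theca cell marker CYP17A1 was at most 0.781 CPM in CC, whereas INSL3, another theca marker, was at 108 to 1162 CPM.

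GDF9 (ENSBTAG00000009478) was abundant in every oocyte pool. The 6 small pools ran from 735 to 1045 CPM with a median of 930 CPM, and the 6 large pools from 696 to 984 CPM with a median of 778 CPM. The 4 spontaneous pools were at 564, 791, 824 and 1093 CPM. The classifications overlapped, and the spontaneous pools held both the lowest and the highest GDF9 value of all 16. Mean GDF9 was 903 CPM ± 127 (SD, n = 6) in small, 804 ± 97.1 (SD, n = 6) in large and 818 ± 217 (SD, n = 4) in spontaneous oocyte pools. Each oocyte pool held 4 oocytes, and CPM gives a share of reads and not an amount of RNA per oocyte. In CC pools, fewer cells of a type and less RNA per cell cannot be told apart.

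BMP15 (ENSBTAG00000045782) varied least of the 3 transcripts. The 6 small pools ran from 1363 to 2034 CPM with a median of 1654 CPM, and the 6 large pools from 1283 to 1638 CPM with a median of 1499 CPM. The 4 spontaneous pools were at 1415, 1563, 1637 and 1625 CPM. The small classification held the 3 highest BMP15 values, 1736, 2017 and 2034 CPM, but its lowest pool, replicate 3, lay below all but 1 of the large pools. Mean BMP15 was 1712 CPM ± 270 (SD, n = 6) in small, 1476 ± 126 (SD, n = 6) in large and 1560 ± 102 (SD, n = 4) in spontaneous oocyte pools.

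BMP6 (ENSBTAG00000019234) had reads in every oocyte pool and the widest relative spread. The 6 small pools ran from 34.1 to 150.9 CPM with a median of 46.0 CPM, and the 6 large pools from 45.2 to 97.7 CPM with a median of 62.2 CPM. The 4 spontaneous pools were at 41.0, 68.5, 68.5 and 30.9 CPM. A single library, small replicate 6, held the top value of 150.9 CPM, and the other 5 small pools were at 34.1 to 58.6 CPM. Mean BMP6 was 62.1 CPM ± 44.7 (SD, n = 6) in small, 63.5 ± 18.8 (SD, n = 6) in large and 52.2 ± 19.2 (SD, n = 4) in spontaneous oocyte pools. Without small replicate 6 the small mean was 44.3 CPM.

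**Figure D1:**
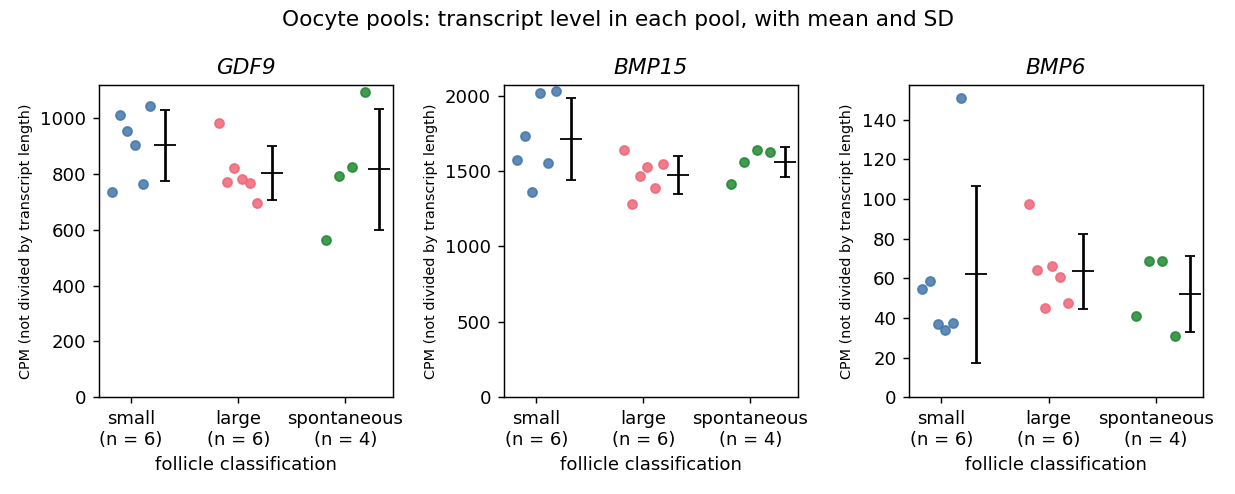
Level of GDF9, BMP15 and BMP6 (CPM, vertical axis from 0, a separate scale for each gene) in each oocyte pool of the small, large and spontaneous follicle classifications; points are pools and black marks the mean with SD. The classifications overlap for all 3 genes, and 1 small pool stands at 150.9 CPM for BMP6.

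Whether these ligands differ between oocytes of small and of large follicles, both with an induced surge, was tested on log2(CPM + 1) with limma, on all 10076 transcripts that reached 5 CPM in 4 or more oocyte pools. A transcript was called at a nominal p of 0.01 or less, and in comparisons with the small classification it also had to pass without small replicate 3, a library the study doubted. From small to large, 0 of the 3 ligands were called, beside 0.655% of all tested transcripts, and 0 of 3 had values that did not overlap, beside 0.258%. At an unadjusted p under 0.05, limma found 0 of 3, beside 4.11% of all tested transcripts. Count tests found 1 of 3, BMP15, with edgeR beside 380 of 10076 transcripts and with DESeq2 beside 524 of 10076. Limma also found BMP15 with median-of-ratios scaling (unadjusted p = 0.0441) and without mitochondrial genes (unadjusted p = 0.0434). BMP15 was 0.868-fold in large relative to small pools (95% confidence interval 0.747 to 1.01), with a log2 fold change of -0.20 ± 0.106 (SE; limma adjusted p = 0.997; exact permutation test of mean CPM, two-sided p = 0.0887, n = 6 and 6). The unadjusted limma p for BMP15 was 0.0635 with all pools and 0.0144 without small replicate 3, neither of which reached the threshold. GDF9 was 0.893-fold in large relative to small pools (0.756 to 1.05; log2 fold change -0.16 ± 0.117 SE; limma adjusted p = 0.997; exact permutation p = 0.165). For BMP6 the ratio was 1.15-fold with a wide interval of 0.734 to 1.80 (log2 fold change 0.20 ± 0.316 SE; limma adjusted p = 0.997; exact permutation p = 0.968). Single pools moved the BMP6 log2 fold change, to 0.50 without small replicate 6 and to 0.10, 0.074, 0.10 and 0.068 without small replicates 3, 4 and 5 and large replicate 1.

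The comparison of small with spontaneous oocyte pools sets small follicles with an induced surge beside follicles with a spontaneous one. The study reported a smaller mean diameter in the small classification. Diameter, surge type and estrus differ together between these pools and cannot be told apart. Here too 0 of 3 ligands were called by limma, beside 0.774% of tested transcripts, and 0 of 3 did not overlap, beside 0.903%. At an unadjusted p under 0.05, limma, edgeR and DESeq2 each found 0 of 3, beside 4.51% of all transcripts with limma. GDF9 was 0.890-fold in spontaneous relative to small pools (95% confidence interval 0.710 to 1.11; limma adjusted p = 0.987; exact permutation p = 0.457, n = 6 and 4). The log2 fold change of GDF9, -0.17 with all pools, was -0.0027 without spontaneous replicate 1 and -0.32 without spontaneous replicate 4. BMP15 was 0.919-fold (0.769 to 1.10; limma adjusted p = 0.987; exact permutation p = 0.352), and its log2 fold change of -0.12 ranged from -0.18 to -0.069 when single pools were left out. The ratio for BMP6, 0.928-fold, had an interval of 0.533 to 1.62 (limma adjusted p = 0.996; exact permutation p = 0.962). Its sign turned without small replicate 6, when the log2 fold change was 0.19 in place of -0.11, and without spontaneous replicate 4, when it was 0.11.

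Large and spontaneous follicles overlap in their range of diameter, but the study reported a larger mean diameter in the large classification. Diameter, surge type and estrus thus differ together here and cannot be told apart. Of the 3 ligands, 0 were called by limma between large and spontaneous pools, beside 0.943% of tested transcripts, and 0 did not overlap, beside 0.913%. With limma, edgeR or DESeq2, 0 had an unadjusted p under 0.05, beside 4.87% of all transcripts with limma. GDF9 differed by a ratio of 0.996 (95% confidence interval 0.808 to 1.23; limma adjusted p = 0.9997; exact permutation p = 0.867, n = 6 and 4). BMP15 was 1.06-fold in spontaneous relative to large pools (0.913 to 1.23; limma adjusted p = 0.976; exact permutation p = 0.286), and BMP6 was 0.808-fold (0.516 to 1.26; limma adjusted p = 0.975; exact permutation p = 0.410). The sign for GDF9 turned without spontaneous replicate 1, large replicate 1 or large replicate 3, when its log2 fold change was 0.16, 0.054 and 0.0017. Leaving out single pools gave 0.042 to 0.13 for BMP15 and -0.46 to -0.088 for BMP6. Comparisons share pools with each other, so the 9 ratios are not independent.

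**Figure D2:**
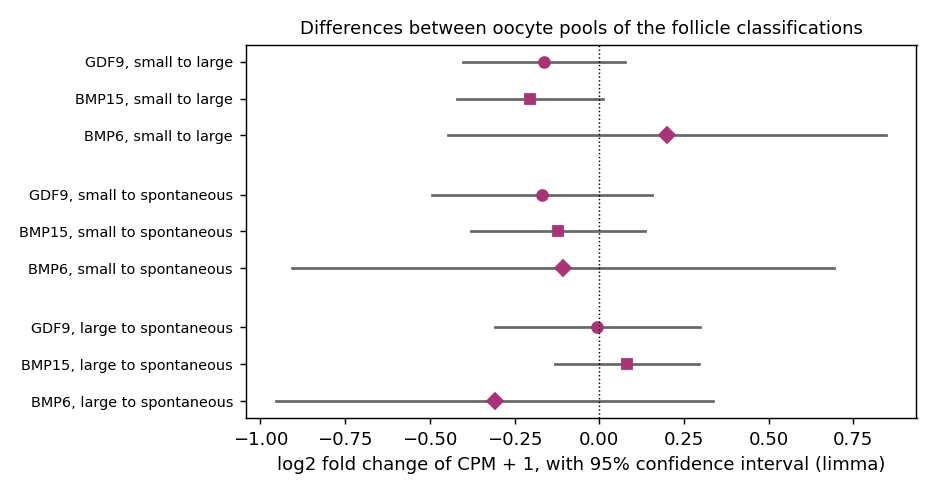
Log2 fold change of GDF9, BMP15 and BMP6 between oocyte pools of each pair of follicle classifications, second minus first, with the 95% confidence interval from limma (lines). Every interval spans 0, and those of BMP6 are the widest in each comparison, as from -0.45 to 0.85 between small and large.

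In order of mean level, GDF9 was highest in small, then spontaneous, then large oocyte pools, as was BMP15, and BMP6 was highest in large, then small, then spontaneous pools. The order of BMP6 rested on small replicate 6, without which the small mean of 44.3 CPM was the lowest, and that of GDF9 in large and spontaneous pools was the opposite on the log2 scale. No neighbours in these orders differed beyond their spread. Over all 16 oocyte pools, the coefficient of variation between pools was 16.8% for GDF9, 13.1% for BMP15 and 49.3% for BMP6. The SD of log2(CPM + 1) was 0.25 for GDF9, 0.18 for BMP15 and 0.58 for BMP6, against a median of 0.67 over all tested oocyte transcripts. Abundant transcripts vary less in general. Among the transcripts within 2-fold of its own mean level, 71.8% of 400 had a smaller SD than GDF9, 39.2% of 125 a smaller SD than BMP15, and 63.9% of 3188 a smaller SD than BMP6.

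GDF9 and BMP15 form heterodimers as well as homodimers, so their balance within a pool was described. The log2 difference of BMP15 minus GDF9, a quantity whose size includes the unknown effect of transcript length, was 0.92 ± 0.24 (SD, n = 6) in small, 0.88 ± 0.16 (SD, n = 6) in large and 0.97 ± 0.31 (SD, n = 4) in spontaneous oocyte pools. It ran from 0.51 in small replicate 3, the small pool with the least BMP15, to 1.33 in spontaneous replicate 1, the pool with the least GDF9. The means lay closer to each other than the SD within any classification.

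Across the 16 oocyte pools, GDF9 and BMP15 levels had a positive correlation that did not pass adjustment over the pairs of ligands. Pearson's r on log2(CPM + 1) was 0.52 (permutation p = 0.0386, 0.116 after Benjamini-Hochberg adjustment over 3 pairs of ligands) and Spearman's rho was 0.57 (permutation p = 0.0223, adjusted 0.0668). Leaving out the 2 pools farthest from the median of GDF9 gave r = 0.53. Within the 6 small pools r was 0.41 (exact permutation p = 0.389) and within the 6 large pools 0.44 (exact permutation p = 0.389), and the 4 spontaneous pools were too few. The relation rested in part on small replicate 6, which held the highest GDF9 and BMP15 of the small classification, since r was 0.42 (permutation p = 0.120) without it. Without small replicate 3, r was 0.63 (permutation p = 0.0130). BMP6 had weaker relations, neither of which passed. Its r was 0.21 with GDF9 (permutation p = 0.433, adjusted 0.433; rho 0.11, permutation p = 0.699) and 0.29 with BMP15 (permutation p = 0.276, adjusted 0.414; rho 0.23, permutation p = 0.398). Without the 2 pools farthest from the median, these were 0.38 and 0.19, and without small replicate 6 they were -0.03 and -0.11.

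**Figure D3:**
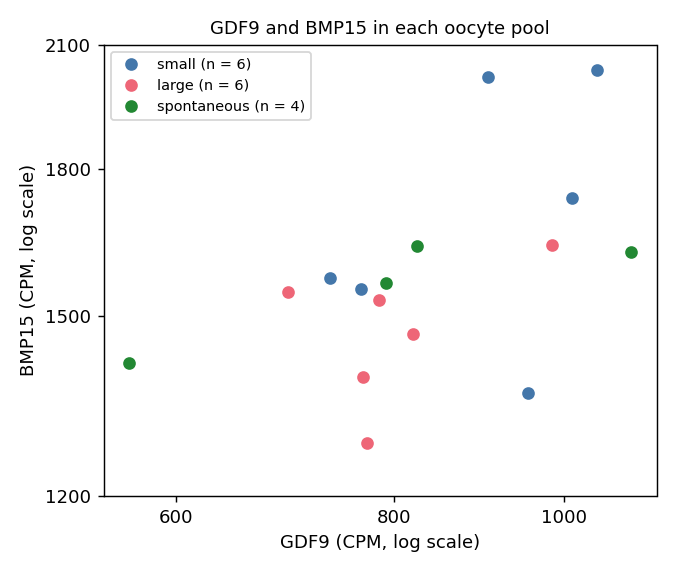
GDF9 (horizontal) against BMP15 (vertical) in CPM on log axes, with 1 point for each of the 16 oocyte pools, coloured by follicle classification. Pearson's r is 0.52, and the small pool low on the right, replicate 3, has 954 CPM of GDF9 with 1363 CPM of BMP15.

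Oocyte pools also held transcripts listed as cumulus and granulosa markers, and whether these came from CC was not tested. Most of their sum was VCAN, with a mean of 1269 CPM in oocyte pools and 16662 CPM in CC. INHA had means of 42.2 and 2262 CPM, and TNFAIP6 of 20.8 and 1477 CPM. The range of the summed cumulus and granulosa markers overlapped between the classifications, at 545 to 3774 CPM in small, 447 to 3412 CPM in large and 465 to 2453 CPM in spontaneous oocyte pools, and Pearson's r of this sum with the ligand level over the 16 pools was -0.31 for GDF9, -0.35 for BMP15 and -0.10 for BMP6 (permutation p = 0.242, 0.18 and 0.710, or 0.363, 0.363 and 0.710 after adjustment over the 3 ligands). Spearman's rho was -0.35, -0.35 and 0.05 (permutation p = 0.182, 0.184 and 0.858, or 0.276, 0.276 and 0.858 after adjustment), and r without the 2 pools farthest from the median of the sum was -0.38, -0.26 and 0.074. FOXL2, a granulosa transcription factor, had reads in 1 oocyte pool. It was also low in CC, with a mean of 0.476 CPM and reads in 14 of 17 pools. HAS2, the hyaluronan synthase of the expanding cumulus that was listed as a cumulus marker, ran from 132 to 248 CPM in oocytes and from 19.4 to 176 CPM in CC. Of the listed cumulus and granulosa markers, HAS2 alone had a higher mean in oocyte pools (193 CPM) than in CC (75.5 CPM).

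Among 9517 tested oocyte transcripts with a gene symbol, those whose pattern over the 16 oocyte pools was most like each ligand were named by Pearson's r. For GDF9 these were QTRT1 (r = 0.86), which encodes a subunit of the queuine tRNA-ribosyltransferase, DHRS1 (0.77), a dehydrogenase, and MCM10 (0.77), a DNA replication factor. For BMP15 they were FAM107B (0.78), GADD45GIP1 (0.75), a mitochondrial ribosomal protein, and AAK1 (0.74), an endocytic kinase. For BMP6 they were RP9 (0.85), PEX10 (0.78), a peroxisome assembly factor, and ZNF236 (0.77). These are the extremes of many values over the same pools. QTRT1 stayed first for GDF9 by Spearman's rho, with class means removed and without small replicate 6. The others changed rank, DHRS1 to 44 and FAM107B to 39 by Spearman's rho, AAK1 to 20 and GADD45GIP1 to 14 with class means removed, and FAM107B to 30, AAK1 to 15, DHRS1 to 13 and RP9 to 12 without small replicate 6.

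In CC the ligands were near the limit of detection. GDF9 had 73 reads in all, spread over 13 of 17 CC pools. It was at 0 to 2.73 CPM in the 6 small pools (median 1.03), at 0 to 3.92 CPM in the 6 large pools (median 0.601) and at 0.418, 0.195, 0.182, 1.81 and 2.87 CPM in the 5 spontaneous pools. The values overlapped in every pair of classifications. Mean GDF9 was 1.16 CPM ± 1.23 (SD, n = 6), 1.11 ± 1.504 (SD, n = 6) and 1.10 ± 1.20 (SD, n = 5), and the exact permutation test gave p = 0.963 for small against large, 0.978 for small against spontaneous and 0.974 for large against spontaneous (two-sided, raw). The sign of these differences turned when single pools were left out, and a difference was not detectable at this depth.

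BMP6 reads in CC came almost wholly from 2 pools. Small replicate 6 held 31 reads (5.37 CPM), spontaneous replicate 2 held 33 reads (6.44 CPM), spontaneous replicate 5 held 1 read (0.220 CPM), and the other 14 CC pools, all 6 large ones among them, held 0. Exact permutation tests of mean CPM gave p = 1 for small against large, 0.606 for small against spontaneous and 0.364 for large against spontaneous. Neither GDF9 nor BMP6 reached 5 CPM in 5 CC pools, so 0 of the 2 were among the 9712 transcripts tested with limma in CC.

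Set side by side with no test, since each cell type was scaled on its own, mean GDF9 in CC was 0.133% of its mean of 844 CPM in oocyte pools and BMP6 was 1.18% of its mean of 60.1 CPM. The oocyte markers listed for CC gave shares of 0.000653% for BTG4, 0.00277% for ZP2, 0.472% for NLRP5 and 4.84% for OOEP, so the markers did not share 1 ratio. ZP2, an egg coat protein, had 9 reads in 5 CC pools, and NLRP5, a protein of the oocyte cortex, had 51 reads in 13. CC small replicate 6, the small pool with BMP6 reads, also had the highest OOEP of all CC pools (13.7 CPM, 79 reads), yet 0 reads of GDF9 and 0 of NLRP5. The oocyte pool of the same classification and number was the one with 150.9 CPM of BMP6. CC spontaneous replicate 2, which held the most BMP6 reads, had 1.76 CPM of OOEP (9 reads), the third of 5 spontaneous pools, with 1 read each of GDF9 and NLRP5, and the spontaneous oocyte pool numbered 2 had 68.5 CPM of BMP6, where numbers of spontaneous oocyte and CC pools need not refer to the same oocytes. Whether oocyte RNA contributed to the reads in CC was not tested.

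**Figure D4:**
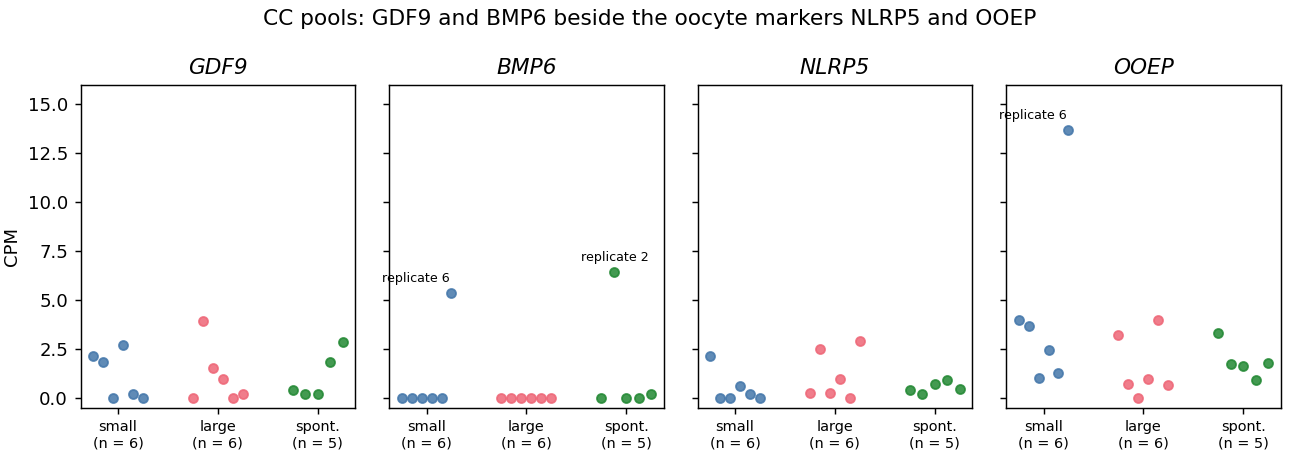
CPM of GDF9 and BMP6 and of the oocyte markers NLRP5 and OOEP in each CC pool, by follicle classification (spont., spontaneous); each point is 1 pool and all panels share the vertical axis. BMP6 is at 0 outside 3 pools, and small replicate 6 is the highest for OOEP at 13.7 CPM.

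The receptors of these ligands were present in both cell types and none was called between classifications. Of 9 listed receptors, all 9 were tested in oocytes and in CC, and 0 of 9 passed in any of the 6 comparisons; at an unadjusted p under 0.05 limma found 0 of 9 in each oocyte comparison and 0, 2 and 1 of 9 in CC (small to large, small to spontaneous and large to spontaneous). Of all transcripts, 0.813%, 2.38% and 1.66% were called in these CC comparisons, and 4.00%, 8.55% and 7.07% had an unadjusted p under 0.05. Genes of a list with no call are named by their CPM, an order that also follows transcript length. In oocyte pools these were BMPR1A (365 CPM ± 44.4, SD, n = 16), BMPR2 (294 ± 50.6) and ACVR1 (166 ± 33.6). In CC these were BMPR2 (284 CPM ± 71.1, SD, n = 17), the co-receptor TGFBR3 (144 ± 37.7) and TGFBR2 (80.6 ± 31.4), the type II receptor for TGF-beta. BMPR2, which GDF9 and BMP15 share, thus had reads in every pool, at 177 to 405 CPM in CC.

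SMAD proteins carry the signal to the nucleus, and 0 of the 5 tested in oocytes and 0 of the 6 tested in CC were called in any comparison, with 0 at an unadjusted p under 0.05. Those named in oocyte pools were SMAD2 (293 CPM ± 46.0, SD, n = 16), SMAD5 (268 ± 51.1) and SMAD1 (187 ± 52.6), and in CC SMAD5 (188 ± 26.6, SD, n = 17), SMAD4 (178 ± 26.4) and SMAD2 (146 ± 37.8). Of convertases and antagonists, 7 of 12 were tested in oocytes and 6 in CC, with 0 called in any comparison and 0 at an unadjusted p under 0.05 in oocytes, against 1, 2 and 1 of 6 in the CC comparisons, where 4.00%, 8.55% and 7.07% of all transcripts did. The convertase FURIN was at 163 CPM ± 36.6 (SD, n = 16) in oocyte pools, another convertase, PCSK5, at 10.2 ± 8.31 and follistatin, FST, at 10.1 ± 10.6. In CC the genes named were FST, which binds activins and some BMPs (237 CPM ± 97.8, SD, n = 17), TWSG1 (124 ± 27.0) and FSTL3 (59.5 ± 20.1).

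The 25 genes listed as known to respond to oocyte factors in CC cover matrix, glycolysis and cholesterol synthesis, and 17 were tested in CC. From small to large, 3 of 17 were called, all higher in large, beside 0.69% of all transcripts called in that direction. The median log2 fold change of the 17 was 0.24 against 0.05 for all transcripts. That of all transcripts moved with scaling, to -0.007 with median-of-ratios scaling and to -0.049 without mitochondrial genes. All 3 encode glycolytic enzymes. The study had already reported lower levels of these enzymes in CC of small follicles than of large ones. The list was chosen with earlier results known. Its calls and median are thus no separate support for a response to oocyte factors. LDHA, lactate dehydrogenase A, was at 873 CPM ± 292 in small pools (504 to 1238) and 1532 ± 181 in large pools (1208 to 1709; log2 fold change 0.88 ± 0.211 SE; limma adjusted p = 0.999; exact permutation p = 0.00433, n = 6 and 6). TPI1, triosephosphate isomerase, was at 654 CPM ± 152 and 1000 ± 161 (log2 fold change 0.63; limma adjusted p = 0.999; exact permutation p = 0.00649). PFKP, a phosphofructokinase, was at 37.8 CPM ± 8.56 and 60.5 ± 14.2 (log2 fold change 0.66; limma adjusted p = 0.999; exact permutation p = 0.0108). HAS2, TNFAIP6 and PTX3, which build the cumulus matrix, and PTGS2, a prostaglandin synthase, did not pass, with log2 fold changes of 0.58, 0.04, -0.17 and -0.44. None of the 3 calls passed adjustment over all transcripts. The call for LDHA held without any single pool and was lost with edgeR. That for TPI1 was lost without small replicate 4 (0.51), with median-of-ratios scaling, without mitochondrial genes and with edgeR and DESeq2, and that for PFKP without any one of small replicates 1, 3, 4 and 5 and large replicates 2, 3, 5 and 6 (0.58 to 0.67) and without mitochondrial genes. The sum of cumulus and granulosa markers, whose difference was not tested, spanned 11283 to 21335 CPM over small CC pools. Over large ones it spanned 18614 to 31274 CPM, so the ranges overlapped. Most of it was VCAN, a matrix proteoglycan, with means of 12999 CPM ± 3582 (small) and 20998 ± 4630 (large; log2 fold change 0.71, limma adjusted p = 0.999). VCAN was the 1 call among 8 tested markers, of which 3 were higher in large. Their median log2 fold change was -0.05. What part these markers had in the glycolytic differences was not tested. The call for VCAN was lost without a filter, with a filter at a mean of 1 CPM, with median-of-ratios scaling, without mitochondrial genes and without any one of small replicates 1, 2, 3 and 5 and large replicates 1, 4, 5 and 6 (0.59 to 0.75).

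From small to spontaneous the list, chosen with earlier results known, is no separate support either. Its median log2 fold change was 0.43 against 0.16 for all. Here 3 of 17 were called, all higher in spontaneous CC pools, beside 2.28% of all transcripts in that direction. They were SQLE, squalene epoxidase of cholesterol synthesis (134 CPM ± 61.6 to 244 ± 61.3; log2 fold change 0.96; limma adjusted p = 0.363), LDHA (to 1410 ± 241; 0.75; limma adjusted p = 0.390) and TPI1 (to 978 ± 198; 0.59; limma adjusted p = 0.418). These 3 calls were lost with median-of-ratios scaling, which lowered the median of all transcripts to 0.01, and with edgeR, DESeq2, no filter or no mitochondrial genes. Single pools also ended them, for SQLE small replicate 5 (0.89) and spontaneous replicates 1 (0.86) and 4 (0.91), for LDHA small replicates 2, 4 and 6 (0.60 to 0.72) and spontaneous replicates 4 and 5 (0.71 and 0.67), and for TPI1 small replicates 2, 4, 5 and 6 and spontaneous replicates 3, 4 and 5 (0.47 to 0.61). From large to spontaneous, 0 of 17 were called, with 0 at an unadjusted p under 0.05, and the median was 0.14 against 0.11 for all. In oocyte pools, 19 of the 25 were tested and 1 was called, beside 0.943% of all transcripts from large to spontaneous. It was TM7SF2, a sterol reductase, lower in spontaneous (19.2 CPM ± 15.9, n = 4) than in large pools (42.8 ± 14.8, n = 6; log2 fold change -1.39; limma adjusted p = 0.954; exact permutation p = 0.0476). That call was lost without large replicate 5 (-1.37) or 6 (-1.24) or spontaneous replicate 1 (-0.95) or 2 (-1.31), and with edgeR, DESeq2 or no filter. ID3, a target of the SMAD1 and SMAD5 branch, ran from 431 to 1491 CPM in oocytes and from 1.42 to 38.6 CPM in CC. ID2 and ID1 of the same list were lower in oocytes than in CC. Their means were 15.5 and 118 CPM for ID2 and 0.011 and 1.53 CPM for ID1.

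**Figure D5:**
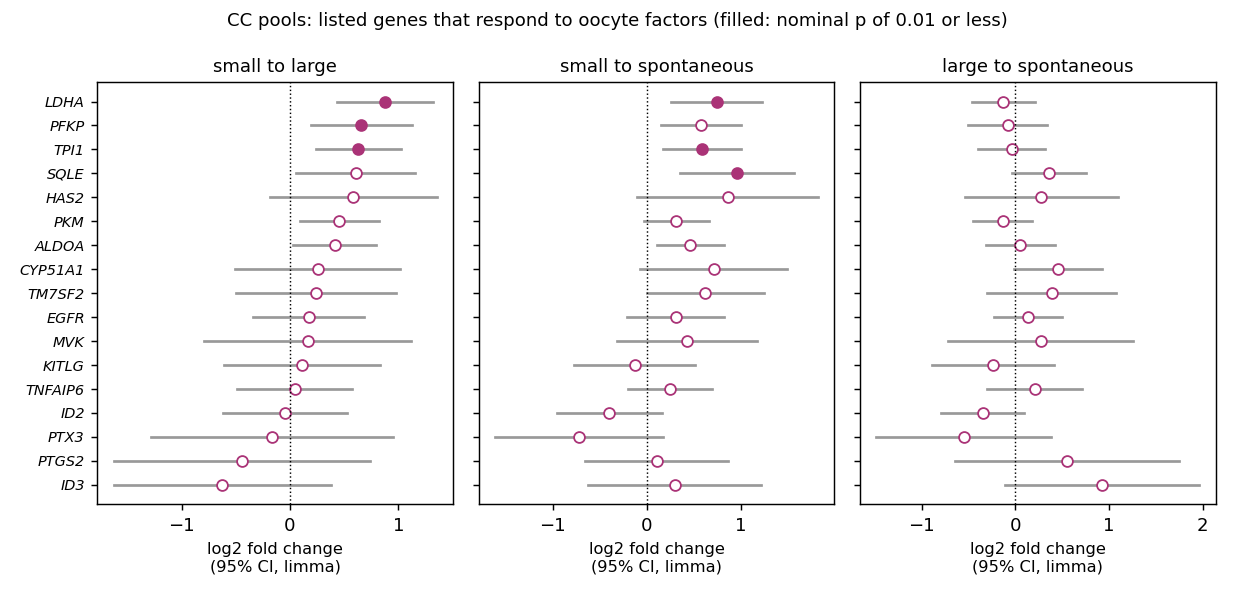
Log2 fold change (limma, second minus first classification, with 95% confidence interval) in CC pools for the 17 tested genes listed as responding to oocyte factors; filled points have a nominal p of 0.01 or less. LDHA and TPI1 are filled in both comparisons with small, and no point is filled from large to spontaneous.

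Of 26 other ligands of the superfamily, 5 were tested in oocytes, with 0 called and 0 at an unadjusted p under 0.05 in any comparison, and 6 in CC. Those named in oocyte pools were INHA (42.2 CPM ± 37.2, SD, n = 16), BMP4 (40.5 ± 33.0) and INHBA (36.7 ± 38.4). In CC the 1 call was INHA, the inhibin alpha subunit, from large to spontaneous, at 1786 CPM ± 886 and 3243 ± 1214 (log2 fold change 0.89; limma adjusted p = 0.567; exact permutation p = 0.0563, n = 6 and 5), beside 1.45% of transcripts called in that direction. The permutation test on CPM did not pass, and the call was lost with median-of-ratios scaling, edgeR, DESeq2, no filter or no mitochondrial genes and without any one of 7 pools (large replicates 1, 3, 5 and 6 and spontaneous replicates 3, 4 and 5, with log2 fold changes of 0.73 to 0.92). CYP19A1, aromatase, a granulosa marker, was called in the same comparison, at 3.52 CPM ± 3.18 and 11.6 ± 7.10 (log2 fold change 1.74; limma adjusted p = 0.567; exact permutation p = 0.0390), and was lost with another pseudocount, no filter, both other scalings, both count tests and 1 fit of 3 classifications, and without any one of large replicates 1, 5 and 6 and spontaneous replicates 2, 4 and 5 (1.39 to 1.84).

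The transcription factors that drive oocyte genes, FIGLA, NOBOX and LHX8, were at 115 CPM ± 47.8, 113 ± 36.4 and 127 ± 21.7 (SD, n = 16) in oocyte pools. Of 7 listed, 5 were tested in oocytes and 0 were called in any comparison, with 0, 1 and 1 of 5 at an unadjusted p under 0.05, beside 4.11%, 4.51% and 4.87% of all transcripts. RSPO2, a secreted activator of WNT signalling and the 1 tested transcript of 4 other oocyte-secreted factors, was at 16.1 to 65.7 CPM (40.8 ± 14.0, SD, n = 16) and was not called in any comparison.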

How the data were processed

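RNA of oocyte and CC pools was amplified and sequenced by the authors, who trimmed reads with fqtrim, aligned them with Hisat2 to the bovine genome UMD3.1, counted them per Ensembl gene with featureCounts and deposited CPM, with oocytes and CC in separate tables. Whether counting used strand was not given in the sources used here. No annotated gene overlaps GDF9, BMP15 or BMP6 in RefSeq (ARS-UCD2.0, used for names only). The genes and lists were chosen with earlier results of these data known.

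The deposited CPM gave whole reads for 100% of values (tolerance 0.01), and read depth was taken from these. Values were analysed as log2(CPM + 1) with limma 3.58.1 (trend, R 4.3.3), for 2 classifications at a time and within a cell type, on transcripts that reached 5 CPM in 4 or more oocyte pools or in 5 or more CC pools. Limma p-values were adjusted by Benjamini-Hochberg over all tested transcripts. Fold changes understate those of low transcripts. Exact two-sided permutation tests (scipy 1.17.1) compared mean CPM, with smallest possible p of 0.00216 (6 and 6 pools), 0.00952 (6 and 4) and 0.00433 (6 and 5). Correlations used 100000 permutations. Count tests on the recovered reads (edgeR 4.0.16 quasi-likelihood, DESeq2 1.42.0), another pseudocount (0.1), filters, scalings, a fit of 3 classifications, the replicate number as a block and single pools left out were alternatives. On simulated counts for 9568 to 9643 genes with 200 changed genes per comparison, 94% to 97% of genes changed by 1 log2 unit and 97% to 100% of those changed by 2 were called, with 0.800% to 1.09% of unchanged genes. The simulation gave every gene the same dispersion, held no outlying pools and did not apply the rule on small replicate 3. It checks the code and does not say how often such changes would be called in these pools. Named genes were the 3 ligands, the called genes of each list or otherwise its 3 most abundant, the 3 transcripts most like each ligand, and markers. HAS2, TNFAIP6, PTX3 and PTGS2 in CC and ID1, ID2 and ID3 were chosen after their values were seen.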

Additional observations from a re-analysis of the deposited data

Results flagged for a closer look

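In classifications of 4 to 6 pools, 13 of 63 groups of values held a pool further from the others than Dixon's 95% limit. The limit assumes normal values, and a lone pool with reads among pools at 0 always lies beyond it. Groups also share pools, so the rate due to chance is not known and the number is no evidence of outlying pools. A further 4 of 27 groups held a pool beyond the limit among transcripts chosen for their likeness to a ligand, which is no separate evidence. BMP6 was 150.9 CPM in oocyte small replicate 6, against 34.1 to 58.6 CPM in the other small pools. The same oocyte pool stood apart for NLRP5 (331.7 CPM, against 92.1 to 144 CPM in the others). RP9 (38.0 CPM) and ZNF236 (48.5 CPM) stood apart there too, but were chosen because their pattern followed BMP6. In CC, BMP6 was 5.37 CPM in small replicate 6, against 0 in the other 5, and 6.44 CPM in spontaneous replicate 2, against 0 to 0.220 CPM, and OOEP was 13.7 CPM in small replicate 6.

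Oocyte large replicate 1 stood apart for OOEP (83.8 CPM) and for QTRT1 (34.4 CPM) and PEX10 (12.4 CPM), chosen for likeness to GDF9 and BMP6, and BTG4 was 4891 CPM in oocyte spontaneous replicate 1. In CC, INHA was 3512 CPM in large replicate 2, against 1083 to 1805 CPM in the other large pools, CYP19A1 was 21.0 CPM in small replicate 4, PFKP was 74.1 CPM in spontaneous replicate 5, and NLRP5 was 2.15 CPM in small replicate 1. ZP2 at 0.307 CPM in CC small replicate 1 and BTG4 at 0.441 CPM in CC spontaneous replicate 5 were single pools with reads in a classification otherwise at 0.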

How the results depend on the processing

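None of the 3 ligands was called in oocytes under any alternative, and the lowest unadjusted p with all pools was 0.0372 (BMP15, small to large, DESeq2). Of the alternative values for the ligands' differences, 232 kept their direction, 30 turned and 1 was 0 (BMP6 in CC from small to large without small replicate 6). BMP6 from small to large had a log2 fold change of -0.0048 with edgeR and -0.013 with DESeq2, GDF9 from large to spontaneous 0.010 and 0.018, and GDF9 in CC differed by 0.0180 CPM from small to large with median-of-ratios scaling and by 0.071 on the log2 scale from large to spontaneous without a filter. With class means removed, r of GDF9 and BMP15 was 0.45. The causes were not tested.

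Leaving out single oocyte pools gave log2 fold changes of -0.26 to 0.19 for BMP6 from small to spontaneous and -0.16 to 0.16 for GDF9 from large to spontaneous. In CC it gave differences of -0.611 to 0.266, -0.504 to 0.254 and -0.455 to 0.549 CPM for GDF9, and -1.07 to 0 (small to large) and -0.840 to 1.33 CPM (small to spontaneous) for BMP6. For r without small replicate 3 or 6, the ranges were 0.42 to 0.63 for GDF9 and BMP15, -0.030 to 0.28 for GDF9 and BMP6 and -0.11 to 0.23 for BMP15 and BMP6, where leaving out replicate 6 was chosen after seeing the data.

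Counts of all called transcripts moved by over 1.5 times as follows. Without a filter more transcripts were tested, so the higher counts given for that setting are not higher shares. From small to large oocytes, 66 of 10076 became 100 of 16078 without a filter and 113 of 10076 with DESeq2. From small to spontaneous, 78 became 121 with DESeq2, 130 without small replicate 3 and 49 without spontaneous replicate 3. From large to spontaneous, 95 of 10076 became 148 of 16078 without a filter, 181 with DESeq2 and 145 without spontaneous replicate 2. In CC from small to large, 79 of 9712 became 121 of 16244 without a filter, 137 with 3 classifications in 1 fit and 52 without small replicate 5. From small to spontaneous CC, 231 (221 higher in spontaneous, 10 lower) became 126 (79 and 47) with median-of-ratios scaling, 129 without mitochondrial genes, 128 with edgeR and 141 without spontaneous replicate 5. From large to spontaneous CC, 161 became 88 and 99 without spontaneous replicates 4 and 5. Scaling also moved the split of called transcripts into higher and lower in the second classification. With median-of-ratios scaling, 45 and 21 became 39 and 31 from small to large oocytes, 53 and 25 became 44 and 30 from small to spontaneous oocytes, 67 and 12 became 44 and 26 from small to large CC (29 and 34 without mitochondrial genes), and 141 and 20 became 62 and 56 from large to spontaneous CC.

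Pools with the same replicate number did not deviate together. Correlations of same-numbered pools were -0.13 to 0.14 over 14 oocyte pairs (1 over 0.1) and -0.19 to 0.22 over 16 CC pairs (3 over 0.1), so the numbers were not taken as pairs. With the replicate number as a block, BMP6 from small to spontaneous oocytes was 0.14 and the count called there was 42, the calls of TM7SF2, PFKP, CYP19A1 and, from small to spontaneous, LDHA and TPI1 were lost, and no ligand was called. Counting error limits GDF9 and BMP6 in CC, where pools held at most 13 and 33 reads.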
